A study of Mus musculus with 9 samples.

Results

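Ptgds and 9 further genes of prostaglandin and leukotriene synthesis (Ptgs1, Ptgs2, Ptges, Hpgds, Hpgd, Tbxas1, Alox5, Alox5ap and Ltc4s) were followed through a mouse liver RNA-seq series, 10 of the 21470 genes in the expression table. Ptgds was chosen by its FPKM values, which rose with ligation and were lower with ligustilide; the other 9 were listed by what their proteins do. Poly(A) or total-RNA selection is not stated in the labels, which name total RNA from liver and a VAHTS Universal V6 library kit. There were 3 libraries in each of 3 groups: sham-operated mice (sham), mice with a ligated bile duct, a model of cholestatic liver fibrosis (BDL), and ligated mice given ligustilide, a phthalide from Angelica and Ligusticum roots (BDL+LIG). For ligustilide the design text states 10 mg/kg, but the library titles of that group carry the number 20. The labels name no strain, genotype, sex, age, time after ligation or vehicle for the other groups. Nothing in the labels says that the libraries came from separate mice, so the p-values rest on a spread that may be technical.

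Eicosanoids are short-lived signalling lipids made from arachidonic acid. Cyclooxygenases (Ptgs1 and Ptgs2) turn it into prostaglandin H2, which terminal synthases convert to prostaglandin D2 (Ptgds, Hpgds), prostaglandin E2 (Ptges) or thromboxane A2 (Tbxas1), and 15-hydroxyprostaglandin dehydrogenase (Hpgd) inactivates prostaglandins. In the other branch, 5-lipoxygenase (Alox5), with its helper protein FLAP (Alox5ap), makes leukotriene A4, from which Ltc4s makes leukotriene C4. In liver, macrophages are a well-known source of prostanoids and leukotrienes, and hepatocytes take up and degrade them. Ptgds differs from Hpgds in its fold: it is a lipocalin that is secreted and binds small lipophilic molecules, while Hpgds is a cytosolic protein of the glutathione transferase family found in mast cells and other blood cells.

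The promoters of 4 of these genes are shown because Ptgds and Tbxas1 share one motif and the macrophage- and blood-cell-associated Ptgs1, Hpgds and Tbxas1 share another. Each line gives the last 100 bases before the RefSeq transcription start in GRCm38.p6 (5′ to 3′ on the gene's strand, coordinates of that build), with the motif matches in capitals.
Ptgds, chr2:25469750-25469849, minus strand: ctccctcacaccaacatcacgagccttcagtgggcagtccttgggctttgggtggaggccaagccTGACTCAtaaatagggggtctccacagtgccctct
Tbxas1, chr6:38918886-38918985, plus strand: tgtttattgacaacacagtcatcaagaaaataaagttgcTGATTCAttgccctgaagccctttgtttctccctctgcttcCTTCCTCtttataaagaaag
Ptgs1, chr2:36230326-36230425, plus strand: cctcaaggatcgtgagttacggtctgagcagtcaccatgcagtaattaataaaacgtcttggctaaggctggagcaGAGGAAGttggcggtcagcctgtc
Hpgds, chr6:65144731-65144830, minus strand: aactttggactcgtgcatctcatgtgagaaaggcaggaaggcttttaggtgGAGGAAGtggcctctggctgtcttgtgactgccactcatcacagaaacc
The AP-1 motif TGANTCA began 35 bases before the start of Ptgds and 61 bases before that of Tbxas1. The letters GAGGAAG, a core bound by the myeloid factor PU.1, began 24 bases before the start in Ptgs1 and 49 in Hpgds, and lay on the opposite strand 20 bases before the start in Tbxas1. Over the 250 bases before the start and both strands, 2 of the 9 members in the promoter table held the AP-1 letters, against 6.75% of 32851 mouse promoters, and 3 of 9 held GAGGAAG, against 10.6%. Alox5 and Ltc4s of the leukotriene branch held neither, nor did Ptgs2, Ptges and Hpgd. The 2 motifs do not overlap each other. They were chosen with these sequences and the expression values in view, so the counts are a description; the tenth member is Alox5ap.

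The table holds FPKM, fragment counts divided by transcript length and by the library's mapped fragments. Because each FPKM is a whole multiple of what 1 fragment is worth, whole fragments were recovered for all 19449 genes with a value in at least 2 libraries, and the 9 totals ran from 34815965 to 40780517, a 1.17-fold range. Differences were tested with limma on log2(FPKM + 1), a scale that understates changes of low genes, over the 10142 genes that reached 1 FPKM in 3 or more libraries, at an adjusted p of 0.05. Of the members, Ptgds, Ptgs1, Hpgd, Alox5ap and Ltc4s passed that filter, Ptgds and Ltc4s only through ligated libraries. The other 5 lay below it; all of these but Ptgs2 were tested with voom, limma's method for counts, on the recovered fragments (14669 genes with 10 or more fragments in 3 or more libraries), a fit added after the data were seen. Alox5 reached that filter only through ligated libraries, and Hpgds and Ptges, each with a sham library under 10 fragments, only with ligated libraries counted. Sham library 1 stood somewhat apart, with a correlation across genes of 0.974 and 0.964 to the other sham libraries, against 0.989 between those, and results that rest on it are given without it. The median difference over all genes tested was 0.16 between BDL and sham and 0.18 between BDL+LIG and BDL (log2); under median-of-ratios scaling the medians were -0.06 and -0.03.

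**Figure D1:**
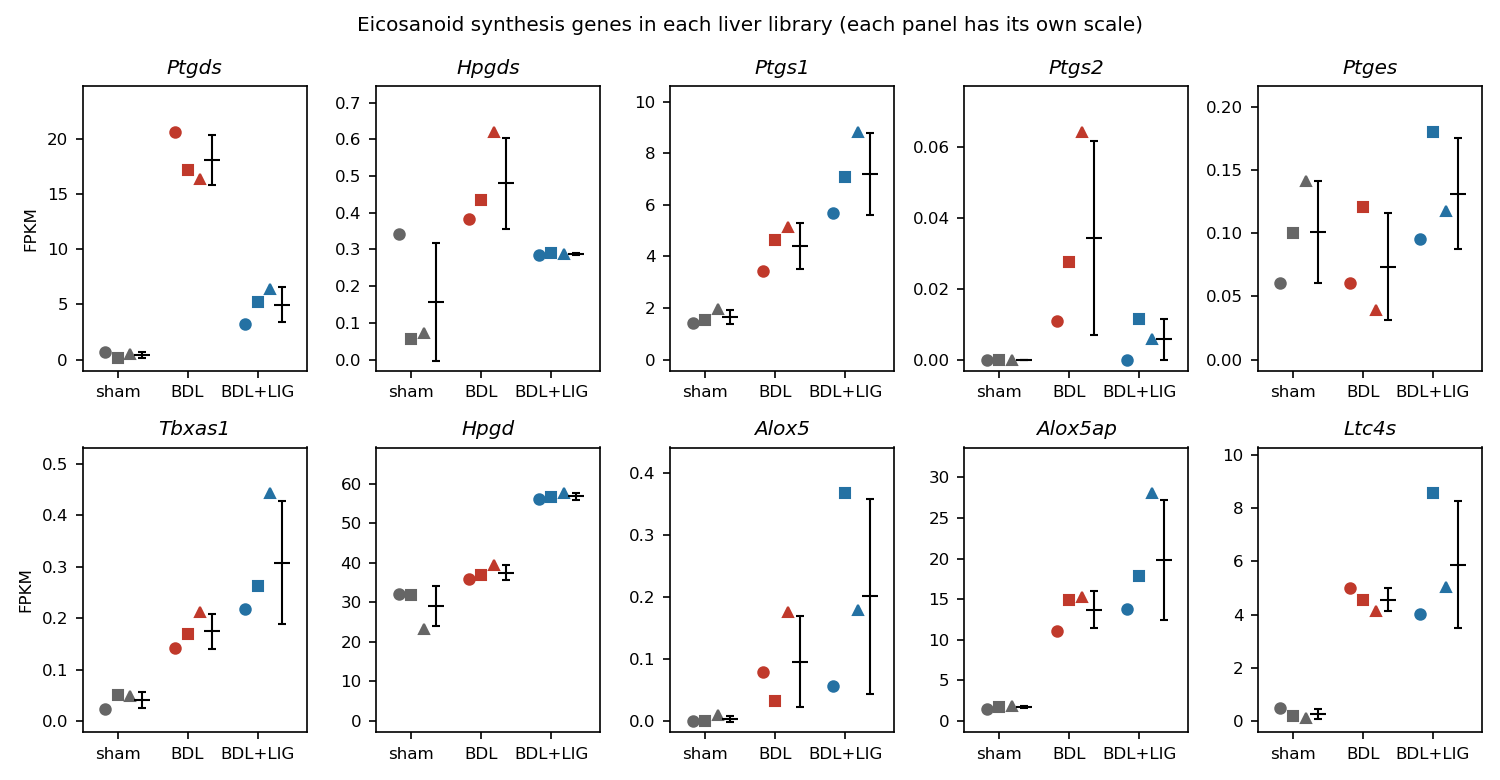
FPKM (vertical axis, a separate linear scale in each panel) of the 10 genes in sham (grey), BDL (red) and BDL+LIG (blue) liver; circles, squares and triangles are libraries 1, 2 and 3, and the bars are the mean ± SD of 3 libraries. Ptgds is highest in BDL, whereas Hpgd lies between 56.0 and 57.6 FPKM in BDL+LIG, above the libraries of both other groups.

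Ptgds, the lipocalin-type prostaglandin D synthase, went from nearly undetected to one of the best-expressed genes of the group. Its level was 0.712, 0.152 and 0.463 FPKM in sham libraries 1 to 3, from 24, 5 and 15 fragments. In BDL it was 20.7, 17.2 and 16.4 FPKM, from 784, 650 and 531 fragments. In BDL+LIG it was 3.26, 5.25 and 6.39 FPKM, from 121, 192 and 235 fragments. The 3 groups did not overlap: every BDL library lay above every BDL+LIG library, and every BDL+LIG library above every sham library. Of the 10142 genes, 33.7% lay wholly higher in BDL than in sham, 10.5% wholly lower in BDL+LIG than in BDL and 45.7% wholly higher in BDL+LIG than in sham. Mean levels were 0.442 ± 0.280 FPKM for sham, 18.1 ± 2.28 for BDL and 4.96 ± 1.58 for BDL+LIG (SD, n = 3), so the BDL mean was 41.0 times the sham mean and 3.65 times the BDL+LIG mean, and the BDL+LIG mean was 11.2 times the sham mean. These values chose the gene, so they are given with no test. In bulk liver, fewer cells of a type and less RNA per cell cannot be told apart, for this gene and those that follow.

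Hpgds, the other prostaglandin D synthase, was far lower than Ptgds in ligated liver, with group means in the same order. Sham libraries held 0.342, 0.0562 and 0.0713 FPKM (50, 8 and 10 fragments), BDL libraries 0.384, 0.434 and 0.621 (63, 71 and 87 fragments), and BDL+LIG libraries 0.286, 0.290 and 0.289 (46 fragments in each). Sham library 1 lay between the BDL+LIG and the BDL libraries, while the other 2 sham libraries were below all of these. In the voom fit Hpgds was higher in BDL than in sham by 2.01 ± 0.59 (log2 of depth-scaled fragments, SE, adjusted p = 0.0307). That call was lost without sham 2, sham 3, BDL 2 or BDL 3, with adjusted p from 0.0675 to 0.128. Sham 2, with 8 fragments, was under the cut of 10, so Hpgds entered the fit only with ligated libraries counted. Its comparisons with sham are therefore a description. BDL+LIG did not overlap BDL, but the difference of -0.68 (95% interval -1.69 to 0.33) did not pass (adjusted p = 0.356). Against sham, BDL+LIG differed by 1.32 with an adjusted p of 0.101, and by 2.12 with an adjusted p of 0.0167 without sham 1. In BDL the Ptgds mean of 18.1 FPKM stood beside an Hpgds mean of 0.480 FPKM, whereas in sham the 2 levels, 0.442 and 0.157 FPKM, had overlapping libraries. Mast cell markers, which go with Hpgds in textbook accounts, summed to between 0.153 and 0.367 FPKM in sham libraries, 0.346 and 0.439 in ligated ones and 0.723 and 1.57 with ligustilide, over the 5 of 7 listed genes in the table. The sum was mostly Kit, which other cells also express, at 1.10, 1.47 and 0.701 FPKM in BDL+LIG. Cpa3, Cma1 and Tpsb2 were at 0 in all sham libraries, Cpa3 and Fcer1a in all BDL libraries, and Cma1 and Fcer1a in all BDL+LIG libraries. The part of mast cells in the level of Hpgds was not tested.

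Ptgs1, the constitutive cyclooxygenase, rose with ligation and was higher still in BDL+LIG. Sham livers held 1.43, 1.53 and 1.95 FPKM, ligated livers 3.42, 4.64 and 5.15, and ligated livers with ligustilide 5.67, 7.10 and 8.84, with no overlap between groups (40.7% of genes lay wholly higher in BDL+LIG than in BDL). BDL exceeded sham by 1.03 ± 0.18 on the log2(FPKM + 1) scale (SE, limma, adjusted p = 0.0021), a call that held under all 11 alternatives run for it and without each library. The step from BDL to BDL+LIG, 0.60 ± 0.18 (95% interval 0.20 to 1.00), missed the threshold with an adjusted p of 0.0558. It passed with TPM, with the 2 groups alone, with the replicate block and with voom over the 10142 genes tested by limma (adjusted p from 0.028 to 0.0454), but not with voom over the 14669 genes (adjusted p = 0.053). It also passed without sham 1, sham 3 or BDL+LIG 1; over all alternatives its adjusted p ran from 0.0274 to 0.222. BDL+LIG exceeded sham by 1.62 (adjusted p = 7.04e-05). The direction was thus opposite to that of Ptgds between BDL and BDL+LIG, 2 comparisons made on the same libraries.

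Ptgs2, the inducible cyclooxygenase, was close to the detection limit throughout. It gave 0 fragments in each sham library, 2, 5 and 10 fragments in BDL (0.0110, 0.0276 and 0.0644 FPKM) and 0, 2 and 1 fragments in BDL+LIG. Its pooled BDL level was 5.2 times that of 3 fragments over the whole sham group, the floor taken for a count of 0. The 17 BDL fragments carry counting error of their own, which that ratio leaves out. The pooled BDL+LIG level was 0.172 times the BDL level, with an exact 95% counting interval of 0.0324 to 0.596. One BDL+LIG library, with 2 fragments, equalled the lowest BDL library in count, so the groups overlap, and such intervals cover counting error only. Ptgs2 was too low for a test across libraries.

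Tbxas1, thromboxane A synthase, rose with ligation, and Ptges, the inducible prostaglandin E synthase, gave no difference that passed. Tbxas1 was represented by 31, 67 and 64 fragments in sham libraries, by 220, 259 and 278 after ligation and by 330, 391 and 663 with ligustilide, with no overlap between the groups. In the voom fit it was higher in BDL than in sham by 2.16 ± 0.48 (log2, SE, adjusted p = 0.00749), which held without each library, and higher in BDL+LIG than in sham by 2.94 (adjusted p = 0.000489). BDL+LIG exceeded BDL by 0.78 (95% interval 0.12 to 1.44), with an adjusted p of 0.118, or 0.0464 without sham 1. Its FPKM (0.143, 0.169 and 0.211 in BDL) should not be set beside the other genes: the length implied by its values is 37785 bases, 8.28 times its longest transcript in the GENCODE M21 annotation, 4562 bases. It is 4.16 times the length of all its annotated exons together, a ratio that 1.99% of 17008 matched genes reach or exceed. Tbxas1 also overlaps Hipk2 and 1700025N23Rik on the opposite strand, and no source used here says whether the counting used strand, so fragments of these genes cannot be told apart from its own.

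Ptges libraries overlapped in every comparison. Sham held 0.0604, 0.101 and 0.141 FPKM, BDL 0.0605, 0.121 and 0.0394, and BDL+LIG 0.0959, 0.181 and 0.118. By voom, BDL differed from sham by -0.47 (95% interval -1.99 to 1.05, adjusted p = 0.662) and BDL+LIG from BDL by 0.87 (-0.57 to 2.31, adjusted p = 0.411). The intervals were wide, with 32 to 57 fragments per group.

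Hpgd, the enzyme that inactivates prostaglandins, was the best expressed of the 10 genes in every library and was highest in BDL+LIG. Sham libraries 1 to 3 measured 32.1, 31.9 and 23.3 FPKM, BDL libraries 36.0, 36.9 and 39.6, and BDL+LIG libraries 56.0, 56.7 and 57.6, and the 3 groups did not overlap. From sham to BDL the difference was 0.37 ± 0.13 (log2(FPKM + 1), SE), with an adjusted p of 0.0588; it was 0.44 and passed without sham 1 (adjusted p = 0.0212), 0.22 without sham 3 (adjusted p = 0.129) and 0.085 under median-of-ratios scaling (adjusted p = 0.682). From BDL to BDL+LIG Hpgd rose by 0.59 ± 0.13 (95% interval 0.30 to 0.88, limma, adjusted p = 0.0238), against a median of 0.18 over all genes tested. Under median-of-ratios scaling that rise was 0.32 with an adjusted p of 0.166. The call was also lost without any 1 of BDL 1, BDL 2, BDL 3, BDL+LIG 2 and BDL+LIG 3 (adjusted p from 0.0681 to 0.105), with differences between 0.56 and 0.63. Against sham, BDL+LIG was higher by 0.95 (adjusted p = 0.000241), and this held without each library and under all 12 alternatives.

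In the leukotriene branch Alox5ap rose with ligation, and Ltc4s, tested only because its ligated libraries passed the filter, was also higher. Alox5ap, the membrane protein that presents arachidonic acid to 5-lipoxygenase, measured 1.52, 1.78 and 1.81 FPKM without ligation, 11.0, 14.9 and 15.2 with it, and 13.7, 17.8 and 28.1 when ligustilide was added. Both ligated groups lay above every sham library and overlapped each other. BDL exceeded sham by 2.43 on the log2(FPKM + 1) scale (SE 0.23, limma, adjusted p = 3.48e-05), and the ratio of mean FPKM was 8.05. BDL+LIG differed from BDL by 0.46 (95% interval -0.04 to 0.96, adjusted p = 0.186).

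Ltc4s, leukotriene C4 synthase, went from 0.470, 0.201 and 0.122 FPKM in the sham libraries (12, 5 and 3 fragments) to 4.99, 4.55 and 4.13 after ligation alone, and the BDL+LIG libraries held 4.02, 8.56 and 5.03. The difference between BDL and sham was 2.14 ± 0.22 (SE, limma, adjusted p = 6.87e-05), a 17.2-fold ratio of means; since no sham library reached 1 FPKM, the filter admitted the gene only because it was high after ligation, and its comparisons with sham are a description. BDL+LIG overlapped BDL, with a difference of 0.25 (95% interval -0.24 to 0.74, adjusted p = 0.448). Against sham, BDL+LIG was higher for Alox5ap by 2.89 (adjusted p = 9.1e-06) and for Ltc4s by 2.40 (adjusted p = 2.37e-05). Alox5ap kept its calls against sham, in BDL and in BDL+LIG, without each library.

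Alox5, 5-lipoxygenase itself, was very low in these livers. Sham libraries gave 0, 0 and 1 fragments, BDL libraries 10, 4 and 19, and BDL+LIG libraries 7, 45 and 22. All ligated libraries lay above all sham libraries, and the ligated groups overlapped. By voom the difference between BDL and sham was 3.60 with an adjusted p of 0.0614 (0.0459 without BDL+LIG 1), and between BDL+LIG and sham 4.61 with an adjusted p of 0.00901. As the gene was tested only through its ligated libraries, these comparisons with sham are a description too. BDL+LIG and BDL differed by 1.01 (95% interval -0.85 to 2.88, adjusted p = 0.462). The fitted folds rest on a sham group with 1 fragment in all; the pooled ratio of BDL to sham was 30.3, with a counting interval of 5.07 to 1231.

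Beside Ptgds, 4 members were tested by limma. With ligation 3 of the 4 (Ptgs1, Alox5ap and Ltc4s) were called higher, where 22.9% of the 10142 genes were called higher and 6.76% lower. In BDL+LIG against BDL 1 of the 4, Hpgd, was called higher, where 9.98% of genes were called higher and 1.79% lower. Against sham, all 4 were called higher in BDL+LIG, where 43.7% of genes were called higher and 8.92% lower. Since Ltc4s entered the test only through its ligated libraries, the counts against sham are a description. The split of all calls depends on scaling: with ligation it was 2322 higher and 686 lower, but 1462 and 1466 under median-of-ratios scaling, and between BDL+LIG and BDL 1012 and 182, but 275 and 355. In the voom fit on fragments, Tbxas1 and Hpgds were called higher with ligation in addition, against a background of 18.6% called higher, and Tbxas1 and Alox5 between BDL+LIG and sham, against 40.6%. Alox5 entered that fit only through ligated libraries, and Hpgds only with ligated libraries counted, so these counts against sham are a description too. Of the 8 members tested in that fit, Hpgd was the 1 called between BDL+LIG and BDL (background 7.6% higher).

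**Figure D2:**
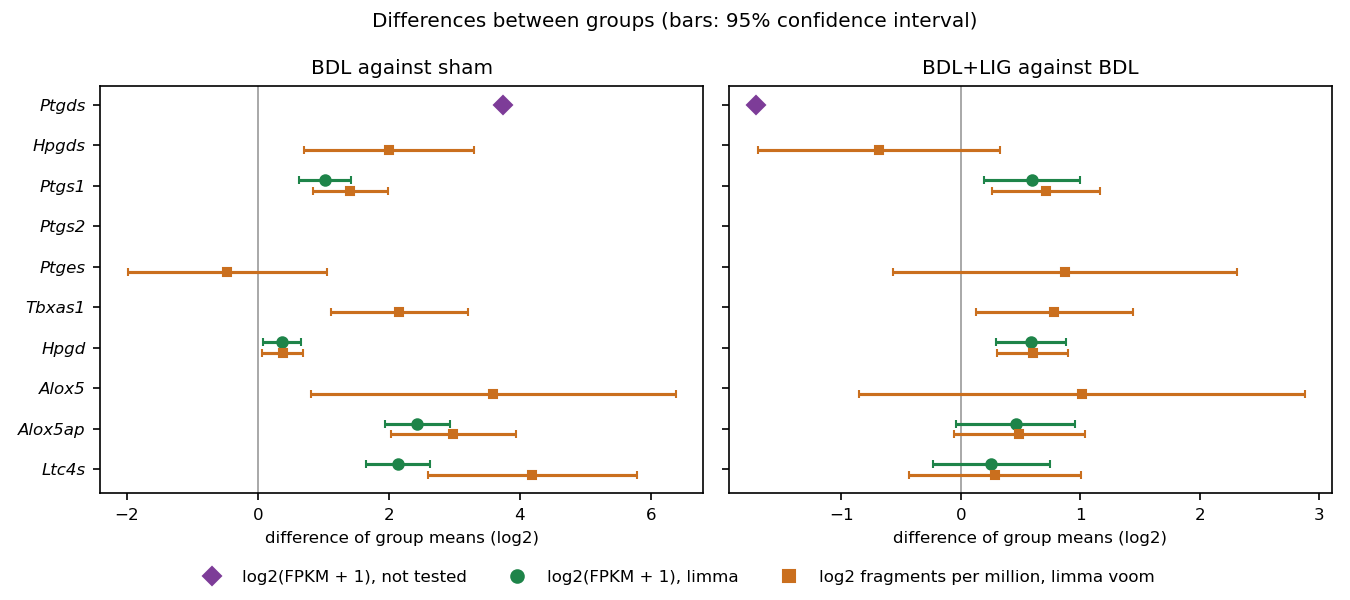
Differences between group means (horizontal axis, log2) for BDL against sham (left) and BDL+LIG against BDL (right); green circles are limma on log2(FPKM + 1), orange squares voom on recovered fragments, purple diamonds the untested values of Ptgds, and bars are 95% confidence intervals. Ptgs2 has no point; Ptgds lies at 3.74 on the left and -1.71 on the right, where the limma estimates of the 4 tested genes are all above 0.

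The order of the levels differed between groups, and it rests on the lengths used for FPKM. The length implied by the values was 1.71 times the longest annotated transcript for Ptgs1, 1.02 for Hpgd and 0.98 for Ltc4s. It was 0.81 times for Alox5ap and 0.70 for Ptgds. The order of genes with close levels, and the shares below, could therefore change with the annotation. In sham, Hpgd (29.1 ± 5.00 FPKM, SD, n = 3) was followed by Alox5ap (1.70 ± 0.16) and Ptgs1 (1.64 ± 0.28), whose libraries overlapped, and then by Ptgds, Ltc4s and Hpgds, which overlapped one another. In BDL the order was Hpgd (37.5 ± 1.84), Ptgds (18.1 ± 2.28), Alox5ap (13.7 ± 2.32), Ltc4s (4.56 ± 0.43) and Ptgs1 (4.41 ± 0.89). The lowest Ptgds library, at 16.4, lay just above the highest Alox5ap library, at 15.2, and those of Ltc4s and Ptgs1 overlapped. In BDL+LIG Ptgds (4.96 ± 1.58) lay below Alox5ap (19.9 ± 7.38), and its libraries overlapped those of Ltc4s (5.87 ± 2.39) and Ptgs1 (7.20 ± 1.59). Of the summed FPKM of the 10 genes, Hpgd made up 83.49 to 89.18% of each sham library, 46.75 to 48.47% of each BDL library and 53.87 to 67.19% of each BDL+LIG library. Ptgds made up 0.42 to 1.94%, 20.13 to 26.94% and 3.91 to 5.97% in the same order, and Alox5ap 4.15 to 6.47%, 14.37 to 18.82% and 16.49 to 26.23%.

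**Figure D3:**
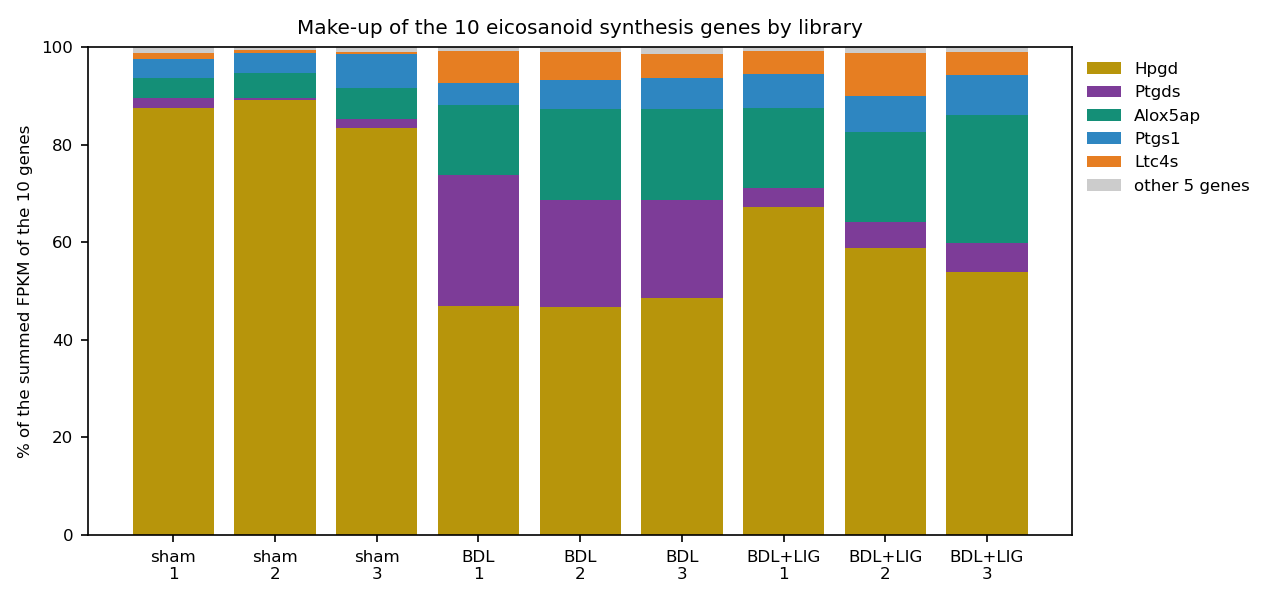
Share (vertical axis, %) of each gene in the summed FPKM of the 10 eicosanoid synthesis genes, 1 stacked bar per library. The purple Ptgds segment is widest in the 3 BDL libraries, at 20.13 to 26.94%, and the Hpgd segment is largest in all 9 libraries.

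Markers of other liver cells moved with ligation and are given as summed FPKM from the lowest to the highest library. Their calls, here and in the next paragraph, are from limma. Over all genes tested it called 22.9% higher and 6.76% lower with ligation, and 9.98% and 1.79% between BDL+LIG and BDL. When 1 library was left out, 0 to 3144 genes were called between BDL+LIG and BDL. Whether the marker calls hold under such changes was not tested. Kupffer cell and macrophage markers summed to 158.5 to 414.3 in sham liver, 693.1 to 940.0 after ligation and 831.4 to 1742 with ligustilide; 11 of 11 rose with ligation and 1 rose further in BDL+LIG. Markers of monocyte-derived macrophages lay at 30.3 to 40.4, 201.7 to 300.5 and 219.7 to 459.4, with 6 of 7 higher after ligation. Among them, Ccr2, Chil3, Trem2, Gpnmb and Itgam reached 1 FPKM in no sham library. They were tested only through ligated libraries, so their rise is a description. Endothelial markers summed to 20.1 to 23.6, 26.9 to 29.4 and 46.2 to 66.8. Of 6 tested, 1 rose with ligation and 6 between BDL and BDL+LIG. Lyve1 and Kdr of these passed the filter only with their BDL+LIG libraries counted. Stellate cell and fibroblast markers summed to 14.8 to 41.2, 74.3 to 93.0 and 110.2 to 212.8. Of 10 tested, 6 rose with ligation and 3 between BDL and BDL+LIG. Lrat and Reln passed the filter only with their BDL+LIG libraries counted, and Pdgfrb only through ligated libraries. Col1a1, Col1a2, Lum, Des and Acta2 each had a sham library under 1 FPKM and passed only with ligated libraries counted. Any rise of these genes against sham is a description. Ptgs1, Tbxas1, Hpgd, Alox5, Alox5ap and Ltc4s shared with the sums of these lists the order of group means, lowest in sham and highest in BDL+LIG. Single genes of the lists did not all follow it. Chil3 was 7.87 to 11.27 FPKM in BDL and 3.87 to 9.92 in BDL+LIG, and Kdr was 0.767 to 1.295 in sham and 0.691 to 0.818 in BDL. Most of the monocyte-derived macrophage sum was Lyz2, at 178.9 to 265.6 FPKM in BDL. The order of the 6 members is not particular to them, as 40.7% of genes lay wholly higher in BDL+LIG than in BDL and 33.7% wholly higher in BDL than in sham. The share of genes with both steps was not counted. The part of any of these cells in the levels of these 6 members was not tested.

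Cholangiocyte and neutrophil markers had their highest library sums in BDL, sums that rest on few genes. In the order sham, BDL and BDL+LIG, cholangiocyte markers summed to 19.9 to 36.0, 405.9 to 602.2 and 214.2 to 456.2, with 6 of 6 higher after ligation and overlapping sums in the ligated groups. Most of that sum was Spp1, at 378.1 to 557.3 FPKM in BDL and 168.0 to 410.4 in BDL+LIG, whereas Sox9 was 2.64 to 3.55 in BDL and 4.03 to 4.51 in BDL+LIG. Krt7 and Cldn7 of this list reached 1 FPKM in no sham library and were tested only through ligated libraries. Epcam, at 0.644 FPKM in sham 2, and Sox9, at 0.981 and 0.581 in sham 2 and 3, passed the filter only with ligated libraries counted. For Krt7, Cldn7, Epcam and Sox9 the rise is a description. Neutrophil markers summed to 4.24 to 6.55, 43.3 to 47.7 and 16.2 to 40.8; the 4 of the 8 that could be tested rose with ligation, and 1 fell in BDL+LIG. Most of it was S100a8 and S100a9, whereas Csf3r was 1.68 to 2.02 FPKM in BDL and 1.88 to 3.47 in BDL+LIG. Csf3r and Retnlg also reached 1 FPKM in no sham library and were tested only through ligated libraries. S100a8, at 0.491, 0.937 and 1.90 FPKM in sham, passed the filter only with ligated libraries counted. The rises of these genes are a description. Platelet and megakaryocyte markers, the textbook companions of Ptgs1 and Tbxas1, summed to 1.15 to 2.53, 2.62 to 7.21 and 4.06 to 5.43, with every ligated library above every sham library. Most of the sum in ligated libraries was Pf4, and every other gene of this list stayed under 1 FPKM in all libraries. Itga2b went the other way with ligation, at 0.444 to 0.633 FPKM in sham and 0.242 to 0.408 in BDL, and Ppbp overlapped between these groups. The 1 that could be tested, Pf4, rose with ligation, from 0.187 to 0.817 FPKM per library in sham to 2.04 to 6.23 in BDL. As it was tested only through its ligated libraries, that rise is a description. Hepatocyte markers, which define the tissue, summed to 53430 to 62560, 32040 to 38980 and 38100 to 46510, far above every other list in each library. Most of that sum was Alb and Apoa1. Of the 8 tested, 1 rose and 2 fell with ligation. Ttr was 4799 to 7312 FPKM in sham and 1367 to 1742 in BDL, whereas Tat was 147.6 to 302.5 and 381.6 to 527.1. The part of any of these cells in the level of Ptgds was not tested. The remaining lists were low: lymphocyte markers summed to 1.25 to 3.48, 2.59 to 3.10 and 5.89 to 14.6, mesothelial markers to at most 4.33, adipocyte markers to at most 1.95, and those of eosinophils and basophils to at most 0.513 FPKM.

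The genes whose log2(FPKM + 1) values were most like those of Ptgds over the 9 libraries were sought among 5827 tested genes with a mean of at least 5 FPKM in a group. The 8 closest were Mif4gd (Pearson r = 0.978), Commd7 (0.978), Tifa (0.975), Krt18 (0.974), Cxcl2 (0.972), Copz1 (0.97), Nek6 (0.966) and Haus7 (0.965). The 9 points fall into the 3 groups, so these values describe a shared order of groups and carry no p. The sizes differed widely. Tifa, an adaptor of innate immune signalling, had means of 4.67, 33.7 and 15.3 FPKM in sham, BDL and BDL+LIG liver, and Cxcl2, a neutrophil chemoattractant, had 0.198, 6.24 and 2.91. Krt18, a keratin of hepatocytes and bile ducts, went from 148.7 to 845.0 and 491.3, whereas Copz1, a coatomer subunit, moved only between 85.6, 112.9 and 100.8.

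Among the genes that release or handle arachidonic acid, 9 were tested; 2 rose and 2 fell with ligation (median -0.10). For this and the lists that follow, the shares over all genes are those given above for limma (22.9% higher and 6.76% lower with ligation, 9.98% and 1.79% between BDL+LIG and BDL), with medians of 0.16 and 0.18, and 2 of 9 rising is near that background. Mgll, which hydrolyses monoacylglycerols including an arachidonate-containing endocannabinoid, fell from 26.3 ± 4.65 to 8.23 ± 0.45 FPKM (adjusted p = 0.00226), and the secreted phospholipase Pla2g12a from 8.65 ± 0.70 to 5.18 ± 0.22 (adjusted p = 0.00442). Acsl4, which activates arachidonic acid to its CoA ester, rose from 5.33 ± 1.92 to 9.23 ± 0.80 FPKM (adjusted p = 0.0331), and the lysosomal phospholipase Pla2g15 from 4.18 ± 0.73 to 7.44 ± 1.00 (adjusted p = 0.0155). Neither rise passed under median-of-ratios scaling or quantile normalization, and Acsl4 did not pass without any 1 of 5 libraries (sham 2, sham 3 and each BDL library), nor Pla2g15 without sham 2, BDL 2 or BDL 3. In BDL+LIG against BDL 0 of the 9 passed in limma (3 had an unadjusted p under 0.05, all higher, median 0.25). Pla2g4a, a gene of this list below the FPKM filter, had 58, 179 and 362 fragments in sham, BDL and BDL+LIG. By voom it was higher in BDL+LIG than in sham by 2.55 (adjusted p = 0.0037), which held without each library. It did not pass with ligation (adjusted p = 0.111) or between BDL+LIG and BDL (adjusted p = 0.113).

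Of 10 tested genes for other prostanoid synthases, reductases and carriers, 3 rose and 0 fell with ligation (1 had an unadjusted p under 0.05 in that direction; median 0.16). Ptgr1, a reductase that inactivates leukotriene B4 and 15-keto prostaglandins, rose from 1.54 ± 0.32 to 7.09 ± 0.78 FPKM (adjusted p = 9.24e-05). Akr1b3, an aldose reductase that can form prostaglandin F2α, rose from 5.50 ± 1.67 to 14.9 ± 1.74 (adjusted p = 0.00136), and Cbr1, a carbonyl reductase, from 88.8 ± 8.41 to 125.1 ± 2.89 (adjusted p = 0.00656, lost under median-of-ratios scaling). Slco2a1, the prostaglandin uptake carrier that delivers prostaglandins to Hpgd, was 13.2 ± 3.86 FPKM in sham and 9.11 ± 0.34 in BDL (adjusted p = 0.0835) and rose to 15.8 ± 1.71 in BDL+LIG (difference 0.73, adjusted p = 0.0315). It was the only one of the 10 called between the ligated groups, and the call was lost under median-of-ratios scaling and without any 1 of the 6 ligated libraries. Abcc4, an exporter of prostaglandins and bile acids below the FPKM filter, rose by voom from 0.0769 ± 0.029 FPKM in sham to 0.421 ± 0.077 in BDL (adjusted p = 0.00195) and to 0.768 ± 0.077 in BDL+LIG (adjusted p = 0.0466 against BDL). The second of these calls was lost under median-of-ratios scaling (adjusted p = 0.133) and without sham 2 or any 1 of the 6 ligated libraries, with adjusted p up to 0.215.

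Receptors were mostly too low for limma. Pparg, a nuclear receptor that metabolites of prostaglandin D2 can bind, was the 1 tested; it rose from 2.04 ± 0.52 to 3.29 ± 0.37 FPKM with ligation (adjusted p = 0.0347), a call lost under median-of-ratios scaling and quantile normalization and without sham 2, BDL 2, BDL 3 or BDL+LIG 3. Ptgdr2, a receptor for prostaglandin D2, was listed at 0 in 8 libraries and at 0.00665 FPKM in BDL+LIG 2; Ptgdr was not analysed here. By voom, Ptger4, a prostaglandin E2 receptor, rose with ligation from 31 to 125 fragments per group (adjusted p = 0.0465) and Ptgfr, the prostaglandin F2α receptor, from 1 to 75 (adjusted p = 0.0157). The Ptger4 call was lost without any 1 of 7 libraries (all but sham 1 and BDL+LIG 2) and under median-of-ratios scaling (adjusted p up to 0.139). Ptger4, with 15, 7 and 9 fragments in sham, was admitted only with its ligated libraries counted. Ptgfr was admitted only through its ligated libraries, and its call was lost without sham 2 or sham 3 (adjusted p up to 0.0798). Both rises are a description. Tbxa2r, the thromboxane receptor, had 38, 51 and 168 fragments in sham, BDL and BDL+LIG; its difference between the ligated groups was 1.62 with an adjusted p of 0.0513.

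In the rest of the leukotriene pathway 4 genes were tested by limma, and 2 rose and 1 fell with ligation (median 0.62). Mgst3, a microsomal glutathione transferase, rose from 15.8 ± 3.37 to 34.4 ± 5.18 FPKM (adjusted p = 0.00187) and Cyp4f18, which oxidises leukotriene B4 in myeloid cells, from 0.184 ± 0.099 to 1.65 ± 0.42 (adjusted p = 0.00542; tested only through its ligated libraries). Cyp4f14, a leukotriene B4 hydroxylase of hepatocytes, fell from 51.3 ± 9.43 to 20.5 ± 3.36 (adjusted p = 0.000866). Of the 4, 0 passed in limma between BDL+LIG and BDL, and 0 had an unadjusted p under 0.05 (median 0.29). By voom, Dpep2, a dipeptidase that converts leukotriene D4, rose with ligation from 9 to 185 fragments per group (adjusted p = 0.00908), and Abcc1, the leukotriene C4 exporter, from 149 to 511 (adjusted p = 0.0194). Dpep2 was admitted only through its ligated libraries, and the Abcc1 call was lost without sham 2, sham 3, BDL 2 or BDL 3 (adjusted p up to 0.0808). Over all the lists, 18 of 37 genes below the FPKM filter could be tested by voom; 5 rose with ligation (Abcc4, Ptger4, Ptgfr, Dpep2 and Abcc1), 1 between BDL+LIG and BDL (Abcc4) and 9 between BDL+LIG and sham. In that fit 18.6%, 7.6% and 40.6% of all genes were called higher, so these counts are not far from the background.

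Among 9 tested genes for other lipoxygenases and eicosanoid-forming P450 and epoxide enzymes, 1 rose and 3 fell with ligation (median -0.60). Cyp4a12a, a 20-hydroxylase of arachidonic acid, fell from 176.5 ± 67.1 FPKM in sham to 13.1 ± 1.27 in BDL (adjusted p = 5.95e-06) and further to 4.49 ± 0.67 in BDL+LIG (difference -1.36, adjusted p = 0.0145, lost without any 1 BDL library). Cyp4a12b, a near-identical copy whose fragments may be shared with it, fell from 52.7 ± 15.8 to 19.1 ± 0.63 with ligation (adjusted p = 0.0145). Ephx2, which hydrolyses epoxides of arachidonic acid, fell from 278.0 ± 23.6 to 160.1 ± 4.14 (adjusted p = 0.000531), and Cyp4a14, a fatty acid hydroxylase, rose from 10.9 ± 2.88 to 26.5 ± 3.26 (adjusted p = 0.00715). Of these 9, Cyp4a12a was the 1 called between the ligated groups (median -0.04).

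Ptgds is also a lipocalin, and 8 other lipocalin family genes were tested. With ligation 5 rose (Lcn2, Orm1, Orm2, Orm3 and Ambp) and 1 fell (C8g), with a median of 1.35. Lcn2, which binds bacterial siderophores, rose from 57.3 ± 41.7 to 7243 ± 956.6 FPKM (adjusted p = 6.63e-06) and was 2947 ± 1504 in BDL+LIG (difference -1.44, adjusted p = 0.0853). Orm1, an acute phase protein with near-identical copies, rose from 1882 ± 542.0 to 7758 ± 537.2 (adjusted p = 0.000166) and fell to 2944 ± 635.2 in BDL+LIG (difference -1.42, adjusted p = 0.0131, lost without any 1 BDL library). Apom, a carrier of sphingosine-1-phosphate, was 106.1 ± 26.9 in sham and 84.4 ± 4.34 in BDL and rose to 256.2 ± 48.3 in BDL+LIG (adjusted p = 0.00697, lost without BDL 2). Between the ligated groups these 8 genes had a median difference of -0.93, with 1 called higher and 1 lower, beside the difference of -1.71 for Ptgds.

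**Figure D4:**
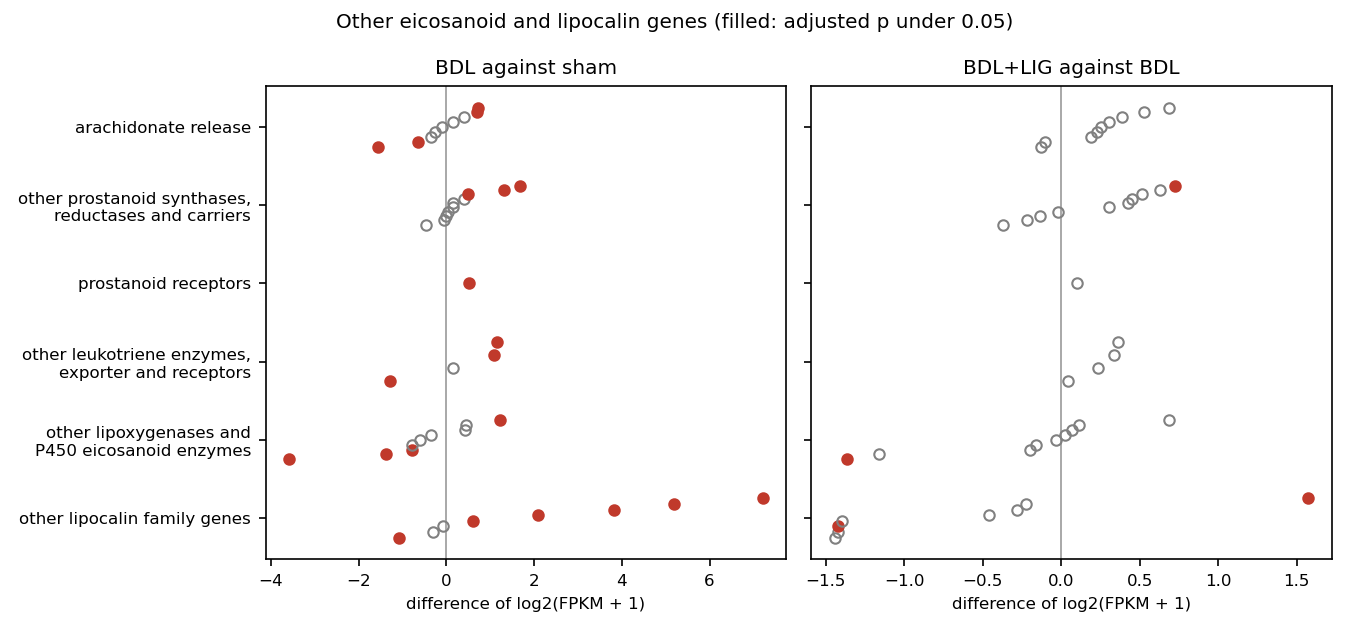
Differences in log2(FPKM + 1) (horizontal axis) for the genes of 6 lists, BDL against sham (left) and BDL+LIG against BDL (right); each circle is a gene and filled circles have an adjusted p under 0.05. The lipocalin family reaches 7.21 (Lcn2) on the left, and on the right the filled circles are Slco2a1 (0.73), Cyp4a12a (-1.36), Orm1 (-1.42) and Apom (1.57).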

How the data were processed

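Liver RNA of 9 mouse libraries (3 per group) was sequenced; per the submitters' processing notes, fastp, HISAT2 2.1.0, DESeq2 and the build GRCm39 were used, and no source used here names the counting tool or annotation. The authors deposited FPKM per gene. Whole fragments were recovered from them, 100% of the genes with a value in at least 2 libraries within 0.02 fragments. FPKM were tested as log2(FPKM + 1) with limma 3.58.1 in R 4.3.3, with all libraries in 1 fit and trended moderation. Genes reaching 1 FPKM in 3 or more libraries were tested, with Benjamini-Hochberg adjustment over all of them and a threshold of 0.05. The fit was also run on simulated counts with genes changed at random in both directions and a fixed spread. That run does not cover the dependence of the calls on scaling or on single libraries. With 3 libraries against 3, an exact permutation test cannot go below 0.1, so none was used. Voom on fragments was added after the data were seen. The members and lists were chosen with earlier results of these data known. Named beside the members were up to 4 called genes per list and comparison, by smallest p, and the 8 genes most like Ptgds; genes below the FPKM filter, Ptgdr2 and Tbxa2r were named after their values were seen. Sequences came from RefSeq (GRCm38.p6), lengths from GENCODE M21; no coordinates were converted. Pla2g2a, Pla2g1b, Ptgdr, Cyp2c44 and Lcn10 were not analysed here.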

Additional observations from a re-analysis of the deposited data

How the results depend on the processing

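The limma calls of Ptgs1 and Alox5ap against sham held under every alternative in which these genes could be tested; Ptgs1 leaves the test with a mean of at least 5 FPKM. Ptgds stayed higher in BDL than in either other group under every alternative, by 3.43 to 5.54 (log2) against sham, with BDL+LIG minus BDL between -1.93 and -1.49. With ligation 3 members were called; it was 1 with a mean of at least 5 FPKM, 5 by voom with the filter on fragments, and 3 to 4 when 1 library was left out. Between BDL+LIG and BDL 1 was called; it was 0 under median-of-ratios scaling (1 with an unadjusted p under 0.05), 2 with TPM, with the 2 groups alone, with the replicate block and by voom over the genes of the limma test, 1 by voom with the filter on fragments, and 0 to 2 when 1 library was left out (2 with an unadjusted p under 0.05 in each fit that called 0). Against sham, BDL+LIG had 4 called, 2 with a mean of at least 5 FPKM, 6 by voom with the filter on fragments, and 4 without each library.

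Over the whole table, 3008 genes were called with ligation; it was 1838 with a mean of at least 5 FPKM and 1894 to 4668 when 1 library was left out (4668 without sham 1, 1902 without BDL 2, 1894 without BDL 3). BDL+LIG against BDL gave 1194 calls: 623 with no filter, 575 with a mean of at least 5 FPKM, 630 under median-of-ratios scaling, 1926 with TPM, 3433 with the 2 groups alone, 742 with the replicate block, and 0 to 3144 when 1 library was left out. That count was 3144 without sham 1, 40, 0 and 54 without BDL 1, 2 and 3, and 716, 289 and 322 without BDL+LIG 1, 2 and 3. Without BDL 2, limma gave 2317 genes at an unadjusted p under 0.05, and voom on fragments called 0 of 14669 with 2880 at that level. Against sham, BDL+LIG had 5335 called genes, 2765 with a mean of at least 5 FPKM and 4505 to 6922 when 1 library was left out. Quantile normalization gave 1510 higher and 1402 lower calls with ligation, and 575 and 531 between BDL+LIG and BDL. The cause of these shifts was not tested, beyond the fewer genes tested under the stricter filter.

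Same-numbered libraries of different groups had deviations correlated between -0.126 and 0.285, so they share only a number; the replicate block changed 1 member's call, that of Ptgs1 between BDL+LIG and BDL (adjusted p = 0.0418). Depth limits Ptgs2, Ptges and Alox5, each with under 80 fragments per group.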
